A study of Mus musculus with 104 samples.

Results

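Somatostatin (Sst), its relative cortistatin (Cort) and 4 somatostatin receptors (Sstr1, Sstr2, Sstr3 and Sstr4) were followed across 52 pieces of the mouse nervous system, retina and endocrine glands. The 6 genes were chosen by symbol, and each was read from its brightest probe set among those with a single gene symbol, out of 18193 genes measured the same way. The series measured total RNA on Affymetrix arrays, with 2 arrays for each region. Its main subject was a piece that joins preoptic area and basal forebrain (POA/BF), and 51 further regions stood beside it. All tissue came from male Balb/c mice aged 7 to 8 weeks that had been adapted to 12 h of light and 12 h of dark and were sampled in that cycle or in constant darkness. No region carried a treatment or an altered gene. RNA of each region was pooled from punches taken every 4 h at 6 time points of a day, so that no value here belongs to a time of day. A punch holds many cell types, and in such bulk RNA fewer cells of a type and less RNA per cell cannot be told apart.

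Somatostatin is a peptide cut from a longer precursor. Hypothalamic neurons release it at the median eminence to restrain growth hormone secretion by the pituitary, and in the cortex, hippocampus, amygdala and striatum it marks a class of GABA neurons. Cortistatin is a close relative that binds the same receptors. The receptors are coupled to inhibitory G proteins, lower cyclic AMP, open inwardly rectifying potassium channels and close calcium channels, and Sstr3 sits mainly in the primary cilium of neurons.

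All levels are the deposited log2 signals, on which 1 unit is 2-fold, and the median of all values was 7.39. A level can be compared between regions for the same gene but not between genes, because probe sets differ in brightness. Over all genes, paired arrays from the same region had r between 0.972 and 0.998. The labels say that each region was sampled independently on 2 occasions but not that separate animals were used, so that each p measures the scatter of paired arrays, which may be technical, and not how regions of a kind differ.

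Some region labels did not match the marker genes checked. Of 17 pairs of a marker and its region, 10 had the labelled region highest and 15 had it among the 3 highest. The exceptions to the latter were Pmch and Hcrt, the peptides of the lateral hypothalamus. They ranked 14 and 13 in the region of that name and were highest in the dorsomedial hypothalamus. Nr5a1, checked for the ventromedial hypothalamus, ranked 3 there at 8.50 and was highest in the dorsal subparaventricular zone at 9.23. Both retina arrays also carried RNA of anterior pituitary genes. Growth hormone (Gh) was at 14.76 and 14.61 there, beside 14.65 and 14.76 in the pituitary and a median of 7.51 over the other 50 regions, and 5 of 7 pituitary genes were higher on both retina arrays than in each of those 50 regions. The photoreceptor gene Gnat1 was at 12.01 and 12.32 on the same arrays. Values of the retina and of the lateral hypothalamus are therefore given by label. The same holds for the dorsomedial and ventromedial hypothalamus and the dorsal subparaventricular zone. The counts of members called were repeated without the retina or the lateral hypothalamus in the test over all regions and in that of POA/BF. They were also repeated without the lateral hypothalamus in the tests of the hypothalamus. Correlations were repeated without the pituitary, pineal gland and retina.

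Across the 52 regions, 4 of the 6 genes passed the limma F test at an adjusted p under 0.05 with a range of region means of at least 2-fold, where 60.3% of all genes did. These were Sst, Sstr1, Sstr2 and Sstr4. Sst had the widest range of the family, 6.22 log2 units or 74.5-fold, and 0.83% of all genes had a wider one. Sstr4 spanned 4.10 units, Sstr2 3.17 and Sstr1 2.83, each wider than the median gene at 1.24. Sstr3 spanned 0.99 and Cort 0.79, and their limma adjusted p of 3.1e-07 and 1.0e-08 came with ranges under 2-fold. The count stayed at 4 without the retina, without the mammillary body or without the labelled lateral hypothalamus.

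**Figure D1:**
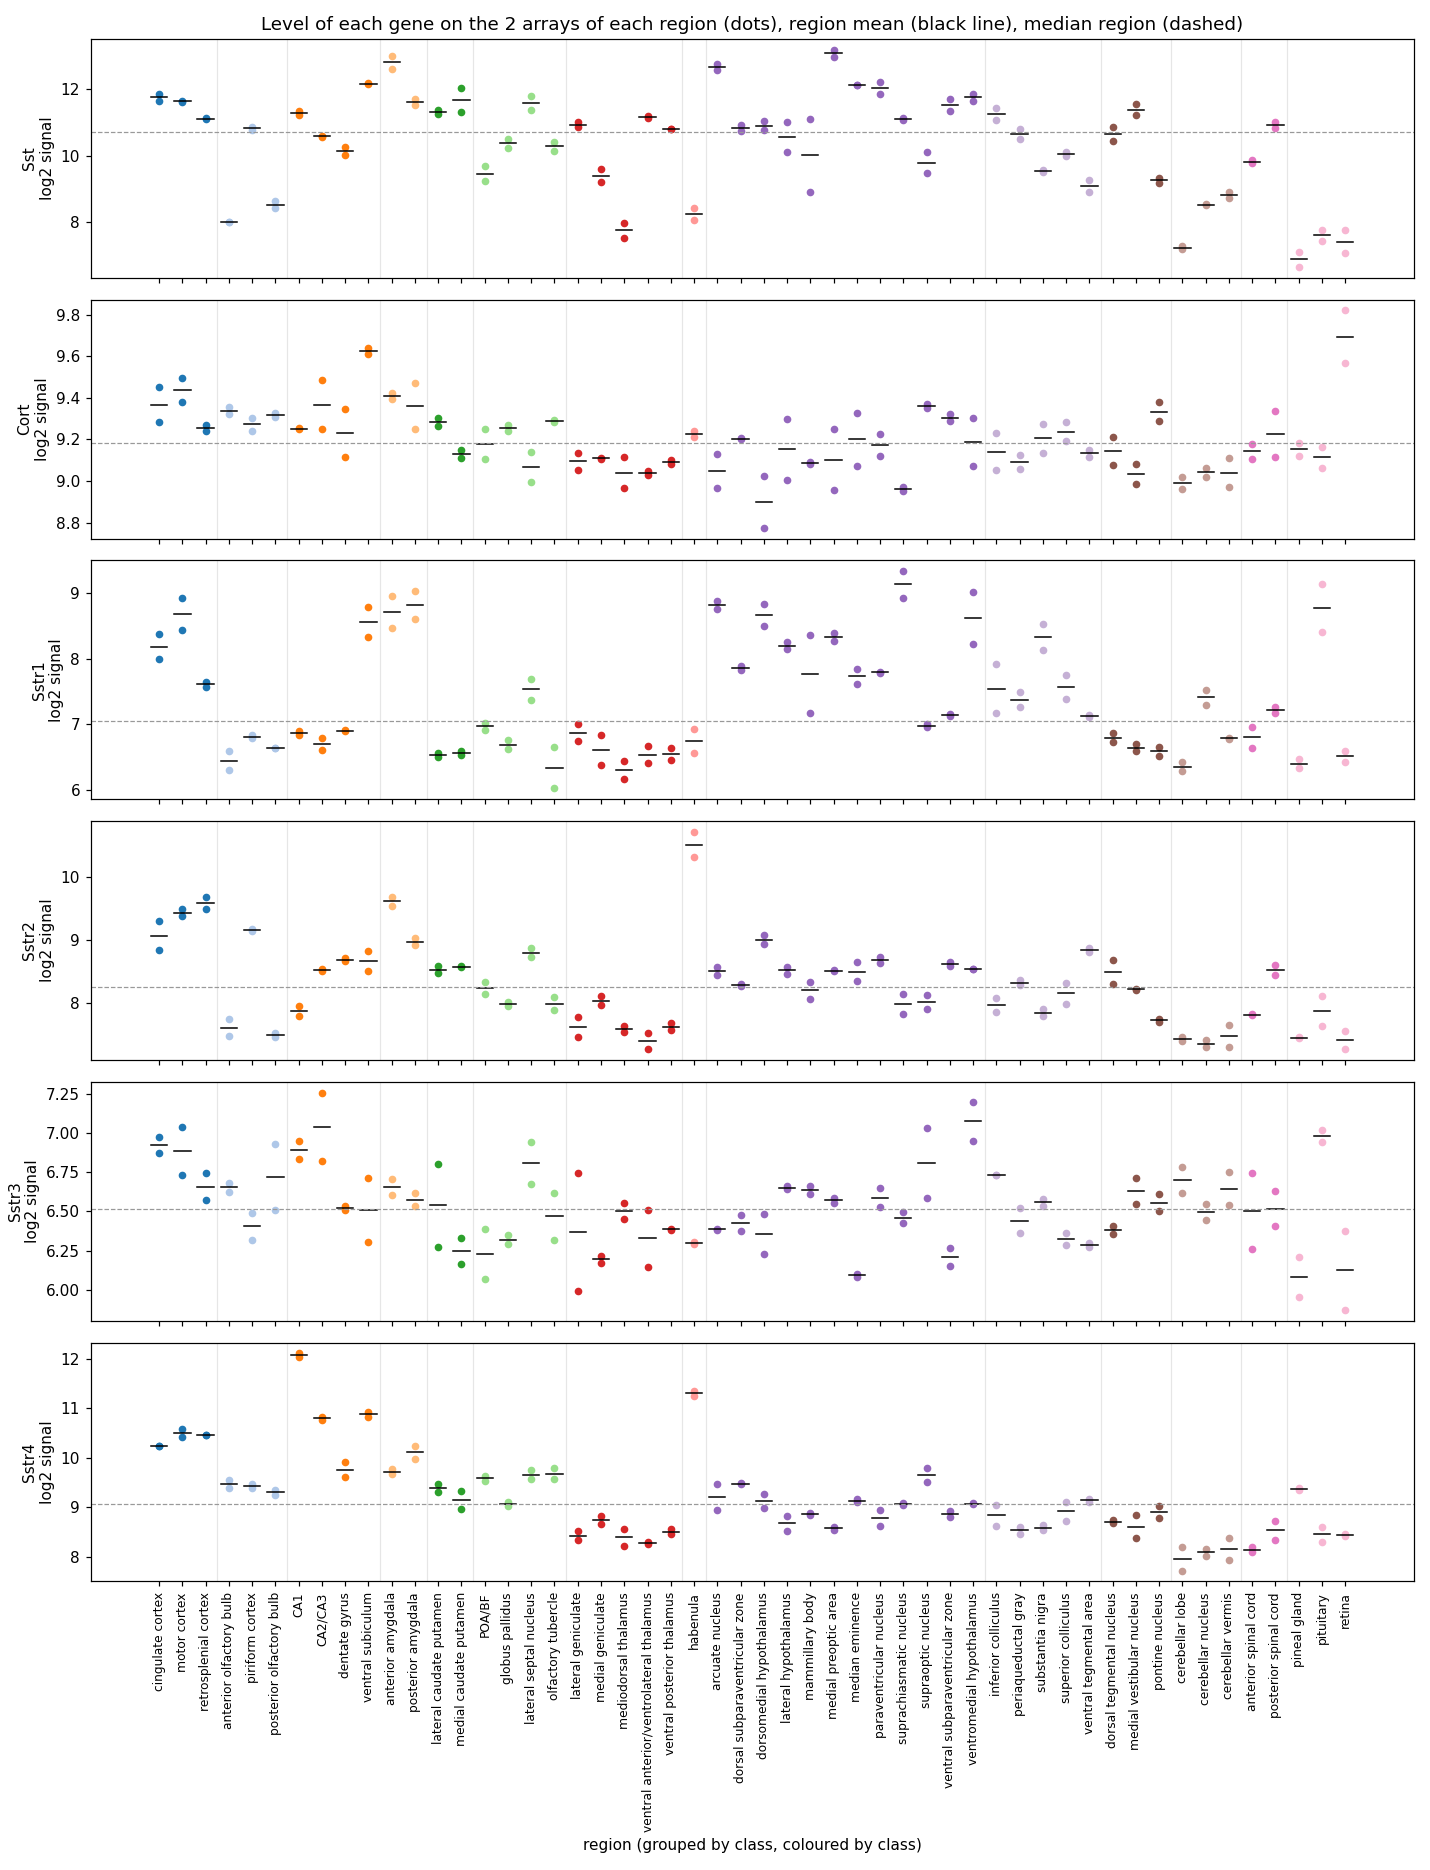
Log2 signal of the 6 genes (vertical axes, a scale of its own for each gene) on the 2 arrays of each of 52 regions (dots), with the region mean as a black line and the median region dashed. Regions are grouped and coloured by class. Sst runs from 6.87 in the pineal gland to 13.09 in the medial preoptic area, Sstr2 stands out in the habenula and Sstr4 in CA1 and the habenula.

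Sst was highest in the medial preoptic area, at 12.98 and 13.20 on its 2 arrays. The anterior amygdala followed at 12.61 and 13.02 and the arcuate nucleus at 12.59 and 12.77. Arrays of neighbours in this top group overlapped, so the anterior amygdala has no settled place beside the other 2. Both arrays of the medial preoptic area lay above both of the arcuate nucleus. The ventral subiculum came next at 12.19 and 12.15, with both arrays below those of the arcuate nucleus. It was followed by the median eminence at 12.12 and 12.14, the zone where hypothalamic endings release their peptides into the portal blood. The gap between these last regions was 0.04, smaller than the standard error of a difference between regions, 0.29.

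At the other end, Sst was at 6.64 and 7.10 in the pineal gland, 7.18 and 7.26 in the cerebellar lobe and 7.05 and 7.76 in the retina. The mediodorsal thalamus, at 7.97 and 7.52, was the lowest region of the brain outside the cerebellum. Around a median region at 10.73, 8 regions lay at least 2-fold above and 15 at least 2-fold below. Of the 51 steps from each region to the next, 10 separated the arrays of the neighbours and 3 exceeded the standard error, so that most neighbours in this order were not separated.

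Regions of the same class did not always share an Sst level. The 12 hypothalamic regions ran from 9.79 in the supraoptic nucleus to 13.09, and the 5 thalamic nuclei from 7.75 to 11.18 in the ventral anterior and ventrolateral nuclei. Within the cerebellum the vermis was at 8.89 and 8.72, and both arrays of the lobe were lower. The 2 arrays of the mammillary body were at 11.11 and 8.91, the widest disagreement of Sst in the series, and Sstr1 differed there in the same direction, at 8.36 and 7.17. The habenula ranked 46 of 52 for Sst, at 8.41 and 8.06. POA/BF held Sst at 9.68 and 9.23, rank 39, while the region labelled medial preoptic area ranked first.

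The start sites of Sst and of its receptor Sstr2 share a short motif, and their upstream sequence is shown because the Sst element is the textbook cyclic AMP response element (CRE). The RefSeq promoter table (build GRCm38.p6) matched 5 of the 6 genes, and Sstr1 was not matched. Each window covers 300 bases, most of them before the gene's start, and the palindrome TGACGTCA, which reads alike on both strands, was searched in it. It occurred in the windows of Sst and Sstr2 and in none of the 4 windows of Cort, Sstr3 (2 windows) and Sstr4. Of all 32851 windows, 588 or 1.79% hold it. The stretches below end at or before the start, lie at chr16:23890845-23890952 on the minus strand for Sst and chr11:113619209-113619316 on the plus strand for Sstr2, and have the CRE in capitals.
Sst: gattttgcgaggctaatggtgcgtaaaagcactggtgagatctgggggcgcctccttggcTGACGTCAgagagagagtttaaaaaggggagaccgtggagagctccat
Sstr2: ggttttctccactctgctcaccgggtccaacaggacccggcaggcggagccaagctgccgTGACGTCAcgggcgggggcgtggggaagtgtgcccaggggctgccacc
The element begins 48 bases before the Sst start and 58 bases before that of Sstr2. A match describes these letters and says nothing of binding in any region.

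Cort varied little. It was highest in the retina at 9.57 and 9.82, then in the ventral subiculum at 9.64 and 9.61, the motor cortex at 9.38 and 9.49, the anterior amygdala at 9.42 and 9.39 and CA2/CA3 at 9.49 and 9.25. Without the retina, whose arrays also carried pituitary RNA, the ventral subiculum was the highest region, and the gap of 0.19 to the motor cortex was the single step among neighbours at which the arrays did not overlap. The lowest values were 8.96 and 9.02 in the cerebellar lobe, 8.97 and 8.95 in the suprachiasmatic nucleus and 8.78 and 9.03 in the dorsomedial hypothalamus. The whole range of 0.79 lay under 2-fold, and 70.3% of genes varied more. The mean over regions was 9.35 in the isocortex, 9.37 in the hippocampal formation and 9.38 in the amygdala, against 9.07 in the thalamus and 9.02 in the cerebellum.

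Sstr1 was highest in the suprachiasmatic nucleus, the hypothalamic clock, at 9.34 and 8.93. The posterior amygdala (8.60 and 9.04), the arcuate nucleus (8.88 and 8.75), the pituitary (9.14 and 8.40) and the anterior amygdala (8.47 and 8.96) followed, and the arrays of all neighbours in this group overlapped. It was lowest in the mediodorsal thalamus at 6.17 and 6.44, the olfactory tubercle at 6.02 and 6.65 and the cerebellar lobe at 6.42 and 6.28. In 22 of 52 regions its mean reached the median of all values. High and low regions sat side by side within a class. Of the hippocampal formation, the ventral subiculum was at 8.34 and 8.79, while CA1, at 6.89 and 6.83, the dentate gyrus and CA2/CA3 all lay under 7. In the hypothalamus the supraoptic nucleus, at 7.00 and 6.95, was the lowest of 12 regions.

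Sstr2 was highest in the habenula, at 10.72 and 10.31, and both arrays lay above those of all 51 other regions. The gap to the next region, the anterior amygdala at 9.53 and 9.69, was 0.90 against a standard error of 0.14. The retrosplenial cortex followed at 9.49 and 9.67, then the motor cortex at 9.37 and 9.49 and the piriform cortex at 9.18 and 9.14. Arrays of the anterior amygdala, retrosplenial cortex and motor cortex overlapped in that order, and those of the motor and piriform cortex did not. The lowest regions were the cerebellar nucleus at 7.29 and 7.40, the ventral anterior and ventrolateral thalamus at 7.26 and 7.52 and the retina at 7.27 and 7.55. The median region was at 8.26, with 4 regions at least 2-fold above it and 0 as far below. Within the hippocampal formation, CA1 was lowest at 7.79 and 7.94, while the dentate gyrus was at 8.66 and 8.70.

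Sstr3, the ciliary receptor, was read by a dim probe set whose mean lay under the median of all values in all 52 regions. Its highest means were in the ventromedial hypothalamus (7.20 and 6.95), CA2/CA3 (6.82 and 7.26), the pituitary (6.94 and 7.02), the cingulate cortex (6.97 and 6.87) and CA1 (6.83 and 6.95). The lowest were in the pineal gland (5.96 and 6.21), the median eminence (6.10 and 6.08) and the retina (5.87 and 6.38). No step between neighbours in its order separated the arrays, while 46 regions had both arrays below those of the ventromedial hypothalamus. The other Sstr3 probe set had the pituitary highest at 7.11 and 7.21, correlated with the first at r = 0.81 over the 52 region means, and shared 3 of its 5 highest regions.

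Sstr4 was highest in CA1 of the hippocampus, at 12.02 and 12.10, with all 51 other regions below on both arrays. The habenula was second at 11.35 and 11.25, then the ventral subiculum at 10.92 and 10.82, CA2/CA3 at 10.77 and 10.82 and the motor cortex at 10.41 and 10.58. Each of these steps separated the arrays, although the step of 0.08 from the ventral subiculum to CA2/CA3 was under the standard error of 0.15. The retrosplenial and cingulate cortex were next, at 10.45 on both arrays and at 10.23 and 10.24. The lowest were the cerebellar lobe at 8.20 and 7.72, the cerebellar nucleus at 8.02 and 8.16 and the anterior spinal cord at 8.19 and 8.09. From CA1 to the cerebellar lobe the difference was 4.10 units or 17.2-fold.

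The other Sstr4 probe set, which was dimmer, gave the same highest region. CA1 was at 8.80 and 8.60 on it, CA2/CA3 at 7.69 and 7.496 and the habenula at 7.98 and 6.99. It correlated with the probe set used at r = 0.86 (Spearman 0.76) over the region means and shared 4 of the 5 and 9 of the 10 highest regions. The ventral subiculum had rank 3 on the probe set used and rank 8 here, at 6.86 and 6.93.

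**Figure D2:**
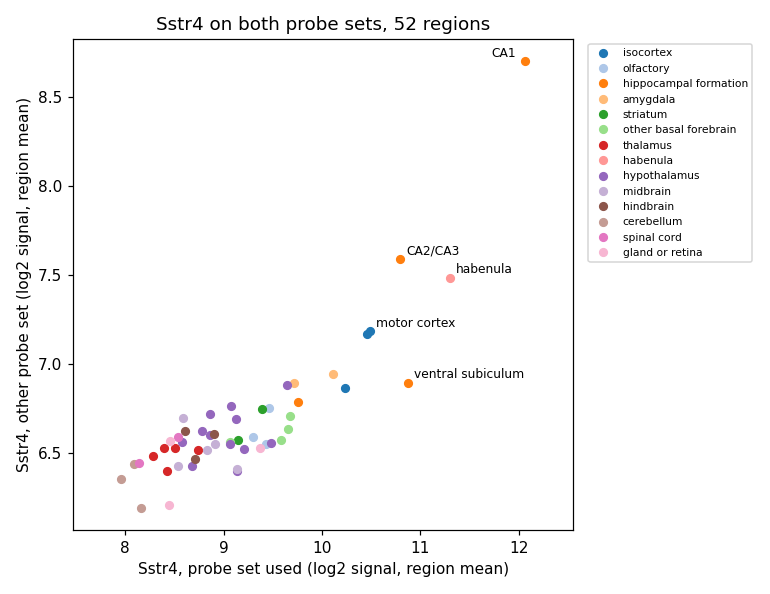
Region means (log2 signal) of Sstr4 on the probe set used (horizontal) and on the other probe set (vertical), 1 dot for each of 52 regions, coloured by class. CA1 is highest on both, at 12.06 and 8.70, and the ventral subiculum lies lower on the other probe set than regions beside it.

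The habenula set the receptors apart from the peptide and from each other. It ranked first for Sstr2 and second for Sstr4, but 36 for Sstr1, at 6.92 and 6.55, and 46 for Sst. The caudate putamen showed another pattern. The medial part held Sst at 12.03 and 11.33 and the lateral part at 11.37 and 11.26, ranks 9 and 15, while Sstr1 in both parts lay between 6.50 and 6.59, ranks 43 and 46. In the pituitary, Sst was at 7.43 and 7.77, rank 49, and Sstr1 ranked 4. The suprachiasmatic nucleus combined rank 1 for Sstr1 with rank 34 for Sstr2 and rank 51 for Cort.

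Over the 52 region means, Sst correlated with Sstr1 at r = 0.50 and with Sstr2 at r = 0.48, and with Sstr4 at r = 0.25. Sstr2 and Sstr4 correlated at r = 0.57 and Cort and Sstr4 at r = 0.49, while Sstr1 and Sstr4 were at r = 0.14. Over the 49 regions without the pituitary, pineal gland and retina, Sst was at r = 0.57 with Sstr1, 0.41 with Sstr2 and 0.22 with Sstr4. Sstr2 and Sstr4 were at r = 0.57 there, Cort and Sstr4 at 0.62 and Sstr1 and Sstr4 at 0.17. These values describe points that share an array for every pair of genes and in part a class of tissue, and none of the 15 pairs exceeded r = 0.57 over all regions.

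**Figure D3:**
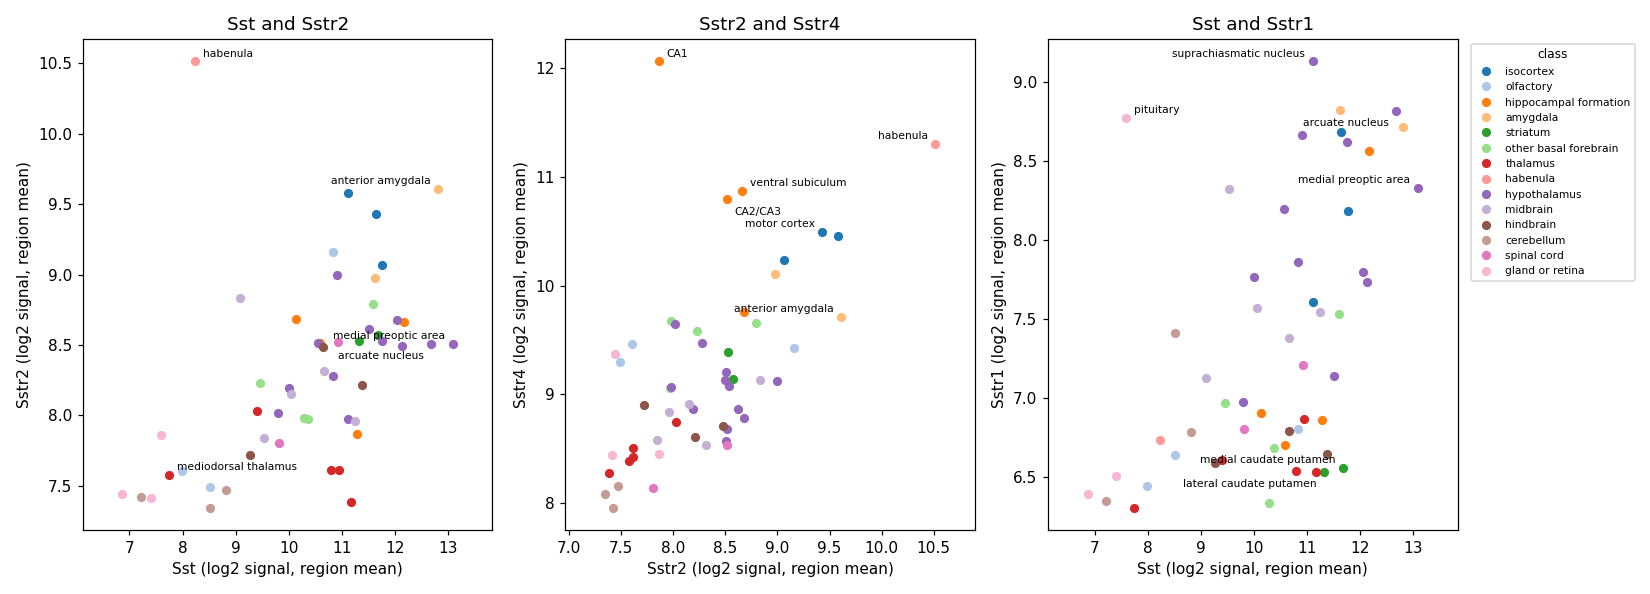
Region means (log2 signal) of Sst against Sstr2, Sstr2 against Sstr4 and Sst against Sstr1, 1 dot for each of 52 regions, coloured by class. The habenula combines a low Sst (8.23) with the highest Sstr2 (10.52), CA1 has the highest Sstr4 (12.06) with an Sstr2 of 7.86, and the pituitary and both parts of the caudate putamen lie off the trend of Sst and Sstr1.

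The comparisons below take the difference between the means of region means on the 2 sides, with its standard error (SE), and call a gene at a limma adjusted p under 0.05 and at least 2-fold. Several share a side, above all the isocortex, so they are not independent of each other. The arrays' hybridisation controls, control transcripts added to each labelled sample, differed between sides in several of them. The largest gaps were 8.64 against 9.67 for POA/BF and the other regions, 9.24 against 10.16 for the hippocampal formation and isocortex, 9.35 against 10.16 for the cerebellar cortex and isocortex and 10.01 against 9.09 for the dentate gyrus and CA fields. With the control level as a covariate, as many members were called in every comparison. The control level of POA/BF rests on an inferred displacement of its control rows.

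**Figure D4:**
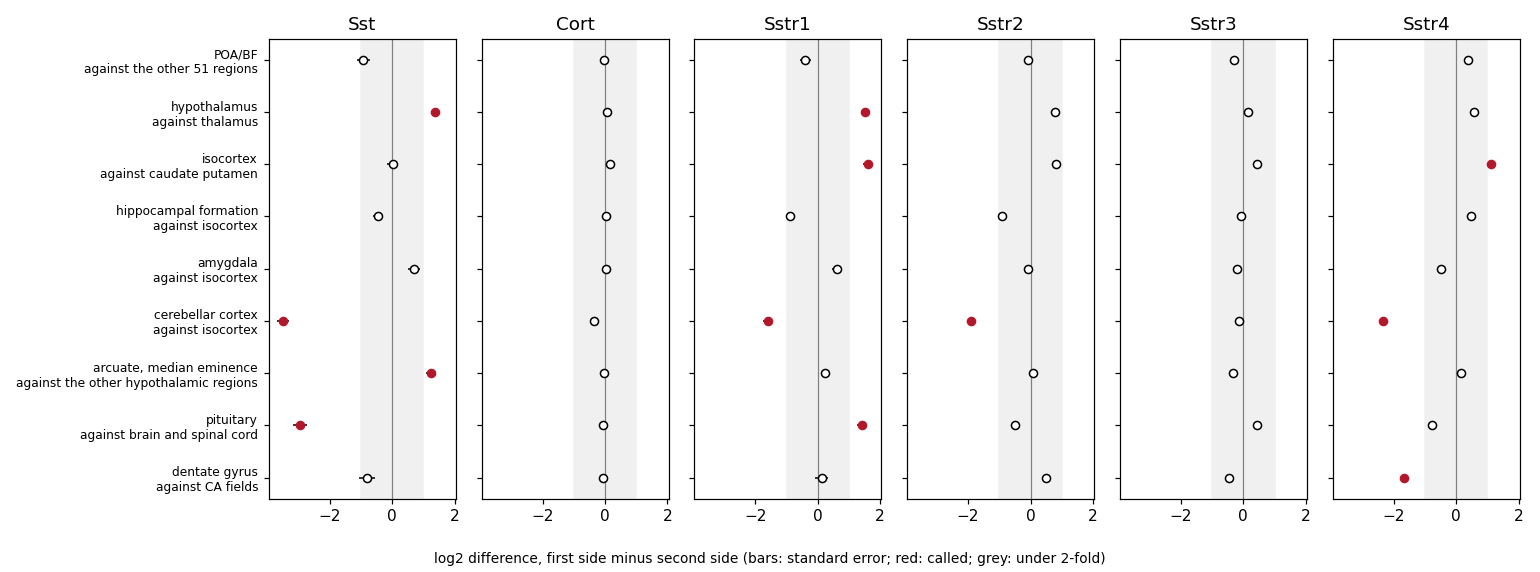
Log2 difference of each gene in 9 comparisons, the side named first minus the other, with its standard error as a bar. Red dots were called and open dots were not, and the grey band marks differences under 2-fold. The 4 red dots of the cerebellar cortex, between -3.49 and -1.59, are the most in any comparison, and Cort and Sstr3 stay within the band throughout.

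The cerebellar cortex (vermis and lobe) differed most from the isocortex (retrosplenial, motor and cingulate). Sst, Sstr1, Sstr2 and Sstr4, 4 of 6 members, were called lower, with 7.02% of all genes called in either direction. Sst was 11.2-fold lower, a log2 difference of -3.49 (SE 0.19, adjusted p = 9.3e-25), with 8.81 and 7.22 in the 2 cerebellar regions against 11.12 to 11.76 in the cortical ones. Sstr4 was 5.04-fold lower at -2.33 (SE 0.10), Sstr2 3.77-fold lower at -1.91 (SE 0.09) and Sstr1 3.01-fold lower at -1.59 (SE 0.15). The other, dimmer Sstr4 probe set was lower too but by less than 2-fold. It was at 6.19 in the vermis and 6.35 in the lobe, against 6.87 to 7.18 in the cortical regions. The region means of the sides did not overlap for the 4 called genes, and how many of all genes share this was not counted. With region means as the samples in limma, these 4 were also called, at adjusted p of 5.3e-05 to 0.0095. So were 1262 of all 18193 genes. At an adjusted p alone 5 members passed, Cort (-0.34) included, and 56.8% of all genes.

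Of 16 measured genes of somatostatin interneurons and other GABA neurons, 6 were lower in the cerebellar cortex and 4 higher. The lower ones included Vip (-3.38), the peptide of another cortical interneuron class, Crhbp (-2.995), a binding protein for corticotropin-releasing hormone, Satb1 (-2.16) and Lhx6 (-1.70), transcription factors of forebrain interneurons. Pvalb (2.85) and Calb1 (2.46), calcium-binding proteins of Purkinje cells, were higher. The median of the list was -0.25 and that of all genes -0.076. Of 13 measured genes of receptor signalling, 1 was called, Gnaz at -1.003, which codes for an inhibitory G protein subunit.

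The hypothalamus (12 regions) stood above the thalamus (5 nuclei) for 2 of 6 members, with 4.47% of all genes called. Sstr1 was 2.86-fold higher at 1.51 (SE 0.09, adjusted p = 2.1e-23), and every hypothalamic mean, from 6.98 up, exceeded every thalamic one, up to 6.87. Sst was 2.56-fold higher at 1.36 (SE 0.11, adjusted p = 4.3e-17), but the sides overlapped. Its call was lost without the mediodorsal thalamus, at 0.79, and with region means as the samples, at an adjusted p of 0.087. Without the labelled lateral hypothalamus the difference of Sst was 1.43, and without the mammillary body 1.48. Sstr2, at 0.80, and Sstr4, at 0.57, missed the 2-fold threshold, and 5 members and 60.3% of all genes passed an adjusted p alone.

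Among the 5 measured genes of precursor processing, Pcsk1, a prohormone convertase, was called higher at 1.55. Of 7 measured genes of the growth hormone axis, the growth hormone receptor Ghr was higher at 2.09 and Igf1, the growth factor that growth hormone induces, lower at -1.83. The GABA neuron list had 1 higher gene, Chodl at 1.41, a mark of long-range somatostatin neurons in the cortex, and 1 lower, Pvalb at -3.68. Oligodendrocyte markers moved with the comparison, with 3 of 4 lower and a median of -1.59. Their mean over genes, taken from each gene's median region, ran from -1.77 to 1.48 in the hypothalamus and from 0.20 to 1.36 in the thalamus, and their part in these differences was not tested. In the signalling list, the potassium channel subunit Kcnj9 was lower at -1.69, 1 of 13.

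Within the hypothalamus, the arcuate nucleus and median eminence were set against the 10 other regions. Sst alone of the 6 members was called, 2.37-fold higher at 1.25 (SE 0.16, adjusted p = 2.0e-09), with 1.92% of all genes called. The medial preoptic area, on the other side, was higher still. The difference was 1.18 without the labelled lateral hypothalamus and 1.12 without the mammillary body. It was 0.97 without the arcuate nucleus, under 2-fold, and with region means as the samples the adjusted p was 0.49. The receptors differed by -0.34 to 0.23, and 2 members, Sst and Sstr3, passed an adjusted p alone, where 36.7% of all genes did.

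Genes of the growth hormone axis were higher on the same side, 3 of 7, with a median of 0.48 beside 0.0026 over all genes. They were Ghr at 1.89, growth hormone releasing hormone Ghrh at 1.61 and the ghrelin receptor Ghsr at 1.39. Of the 16 GABA neuron genes, 1 was higher and 2 lower, with a median of -0.42. Npy, a peptide of arcuate neurons and of cortical somatostatin cells, was higher at 4.30, and Vip (-1.21) and Reln (-1.08) were lower. Of 7 measured pituitary genes, Cga (5.08), Pomc (3.72) and Tshb (3.07) were also higher, of which Pomc is made by arcuate neurons too. Gh, at 7.78 in the median eminence and 7.40 in the arcuate nucleus, and Prl, at 6.43 and 6.26, were near their medians of 7.51 and 6.34 in the other regions. Lhb and Fshb were at 8.14 and 6.43 in the median eminence, above medians of 7.61 and 5.29, and at 7.57 and 5.26 in the arcuate nucleus. The list level of the pituitary genes was 1.61 and 2.245 against -0.11 to 0.50, and their part in the difference of Sst was not tested. Markers of meninges and fibroblasts were higher for 5 of 6 genes, with a list level of 1.37 and 2.30 against -0.38 to 2.64, and their part in the difference of Sst was not tested.

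The isocortex and caudate putamen did not differ in Sst beyond error, at 0.01 (SE 0.19, adjusted p = 0.98), and the 95% interval of the difference ran from -0.37 to 0.39. Of the members, 2 receptors were called higher in the isocortex, with 4.41% of all genes called. Sstr1 was 3.06-fold higher at 1.61 (SE 0.15, adjusted p = 4.8e-14), from 7.61 to 8.68 in the cortex and from 6.53 to 6.56 in the caudate putamen. Sstr4 was 2.19-fold higher at 1.13 (SE 0.10), from 10.24 to 10.49 against 9.14 to 9.39. It was just under 2-fold, at 0.998, without replicate 1 of the caudate putamen, and at 0.77 with the mean of both probe sets. Sstr2 was at 0.81 and Sstr3 at 0.43, both under 2-fold, and 4 members and 33.9% of all genes passed an adjusted p alone.

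Signalling genes were called higher in the isocortex for 3 of 13 measured. They were the potassium channel subunits Kcnj9 (2.05) and Kcnj3 (1.23) and the receptor kinase Grk3 (1.65). Of the 16 genes of somatostatin and other GABA neurons, 5 were higher and 4 lower. Vip (3.58), Satb1 (2.92), Pvalb (2.60), Crhbp (2.48) and Grin3a (1.08) were higher in the isocortex, while Reln (-1.75), the vesicular GABA transporter Slc32a1 (-1.64), Calb1 (-1.36) and the GABA-synthesising enzyme Gad2 (-1.29) were lower. The list's median was 0.0066. Of the other cell types, 1 of 4 choroid plexus markers was higher in the isocortex, at a list level of -0.16 to 0.78 against -0.36 and -0.30, and 1 of 4 oligodendrocyte markers lower, at -1.46 to -0.16 against -0.18 and 0.14, and their part in these differences was not tested.

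Against the isocortex, the hippocampal formation had 0 of 6 members called, where 1.71% of all genes were. At a limma adjusted p alone 4 members passed, as did 33% of all genes. Sstr2, at -0.93 (SE 0.08), and Sstr1, at -0.90 (SE 0.13), came close to 2-fold lower, Sst was at -0.46, and Sstr4 was higher at 0.48. Without the ventral subiculum, where Sstr1 was high, both Sstr1 (-1.34) and Sstr2 (-1.005) were called. Sstr2 was also called without the dentate gyrus (-1.01) or the cingulate cortex (-1.07), and Sstr1 without the retrosplenial cortex (-1.18). Of the GABA neuron genes 3 were lower, Vip (-1.68), Satb1 (-1.44) and Pvalb (-1.27), and 0 of 16 were higher. Choroid plexus markers were higher for 2 of 4 genes on the hippocampal side, where the list's mean over genes stood 0.21 to 3.41 from its median region against -0.16 to 0.78 in the isocortex, and their part in these values was not tested.

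Inside the hippocampal formation, the dentate gyrus was set against CA1 and CA2/CA3. Sstr4, 1 of 6 members, was 3.18-fold lower in the dentate gyrus at -1.67 (SE 0.13, adjusted p = 5.4e-16), with 2.33% of all genes called. It was at 9.90 and 9.61 there, and 10.79 in CA2/CA3 and 12.06 in CA1. With region means as the samples the adjusted p was 0.39, from 3 regions in all. Sstr2 was higher at 0.49 and Sst lower at -0.81, both under 2-fold, and Sst was called at -1.16 without CA2/CA3. An adjusted p alone was passed by 4 members and by 27.8% of all genes. Crhbp (-2.67) and Vip (-1.47) were lower among the interneuron genes and Calb1 (2.01) higher. Choroid plexus markers were lower for 4 of 4 genes, with a list level of 0.37 against 1.85 and 3.41, and oligodendrocyte markers for 3 of 4, at -1.001 against -0.05 and 0.78, and their part in the value of Sstr4 was not tested.

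Amygdala and isocortex had 0 of 6 members called, where 1.97% of all genes were. By adjusted p alone Sst, at 0.71 (SE 0.19), and Sstr1, at 0.61 (SE 0.15), were higher in the amygdala and Sstr4, at -0.48 (SE 0.10), lower, 3 members in limma where 25.5% of all genes passed. Sst differed between the 2 amygdala pieces, at 12.81 anterior and 11.62 posterior, and without the posterior piece it was called at 1.31. Of the GABA neuron genes, Nos1 (1.67), Calb1 (1.17) and Chodl (1.06) were higher and Pvalb (-2.52), Satb1 (-2.30) and Vip (-1.47) lower. The other 10 of the 16 genes were not called. Nos1 and Chodl mark the long-range somatostatin cells of the cortex, but over all regions Nos1 was highest in the pontine nucleus and Chodl in the anterior spinal cord. Oligodendrocyte markers were lower for 4 of 4 genes, with a median of -1.50 and a list level of -2.93 and -1.66 against -1.46 to -0.16, and their part in these values was not tested.

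The pituitary was set against the 49 regions of brain and spinal cord. Sst was 7.74-fold lower at -2.95 (SE 0.21, adjusted p = 1.4e-19) and Sstr1 2.66-fold higher at 1.41 (SE 0.17, adjusted p = 5.8e-11), 2 of 6 members, where 13.3% of all genes were called. Pituitary Sst, at 7.60, still lay above the lowest brain region at 7.22, and pituitary Sstr1, at 8.77, below the highest at 9.13. With region means as the samples, the adjusted p were 0.13 for Sst and 0.27 for Sstr1. Sstr3 was at 0.45, Sstr2 at -0.48 and Sstr4 at -0.78, and 5 members and 56.4% of all genes passed an adjusted p alone.

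On the pituitary side Gh (7.18) and the receptor of its releasing hormone, Ghrhr (3.43), were higher, 2 of 7 genes of the axis, and Pcsk1 was higher at 3.002. Sstr5, the receptor outside the 6 genes studied, had its highest mean in the medial caudate putamen, at 7.58, and was at 7.15 and 7.43 in the pituitary. Signalling genes were lower for 6 of 13 and higher for 1. The inhibitory G protein subunit Gnai1 was lower at -2.58, Kcnj9 at -2.36 and the arrestin Arrb1 at -2.31, while Gnai3 was higher at 1.18. All 7 measured pituitary markers were higher, and 8 of 16 GABA neuron genes lower. Oligodendrocyte markers were lower for 4 of 4 genes, at a list level of -4.10 against -2.93 to 1.65, and meningeal markers higher for 3 of 6, at 1.26 against -0.51 to 2.75, and their part in the values of Sst and Sstr1 was not tested.

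POA/BF had 0 of 6 members called against the other 51 regions, where 1.64% of all genes were. Sst was lower at -0.93 (SE 0.21, adjusted p = 4.1e-04) and Sstr4 higher at 0.38 (SE 0.11, adjusted p = 0.0057), both under 2-fold, and limma passed 2 members at an adjusted p alone, as well as 27.6% of all genes. Without POA/BF replicate 1, Sst was called at -1.15. Of the 16 GABA neuron genes, 2 were higher, 1 was lower and 13 were not called. Lhx6, the transcription factor of interneurons from the medial ganglionic eminence, was higher at 2.50. Elfn1, a synaptic protein of somatostatin interneurons, was higher at 1.31, but its highest region was the habenula. Pvalb was lower at -1.75. Pcsk1 (1.04), 1 of 5 measured genes of precursor processing, and Igf1 (1.01), 1 of 7 of the growth hormone axis, were higher too. Markers of meninges and fibroblasts were higher for 5 of 6 genes, with a median of 2.48 and a list level of 2.75 against -0.51 to 3.58, and their part in the value of Sst was not tested.

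Genes of the primary cilium, where Sstr3 resides, gave 1 call in the 9 comparisons, Kif3a, a motor of ciliary transport, lower in the pituitary at -1.63. Over the 52 region means, the median correlation of the 7 measured cilium genes with Sstr3 was r = -0.13, and r = -0.16 over the 49 regions without glands and retina. For the 13 signalling genes the median correlation with Sst was r = 0.18 over 52 regions and -0.025 over 49, and for the 16 GABA neuron genes r = 0.29 and 0.14. The GABA-synthesising enzyme Gad2 was at r = 0.59 with Sst over 52 regions and 0.40 over 49. Gad1, the other such enzyme, was at r = 0.53 and 0.31, and Pvalb at -0.22 and -0.32.

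Among 10028 genes with a range of at least 2-fold and a top region mean no lower than the overall median, those whose region means were most like Sst were the progesterone receptor Pgr (r = 0.77), Pnma2 (0.74), Spin1 (0.72), the G protein subunit gene Gnaz (0.71) and the calcium channel gene Cacna1b (0.71). Pgr was also highest in the medial preoptic area, and it stayed in first place by rank correlation (0.72) and without the 2 glands and the retina (0.70). Of the 5 genes, 1 was still among the first 5 without these 3 regions. Cort was most like Calhm2 (0.72), Pdgfb (0.71), Retn (0.70), Klhl40 (0.69) and Tnfaip3 (0.69), all highest in the retina, and 1 of these 5 was kept without the 3 regions and 1 by rank correlation. Sstr1 was nearest to Ptprk (0.68), Ly6h (0.65), Cadm1 (0.65), Rsph9 (0.64) and Usp27x (0.64), with 0 of the 5 kept without the 3 regions.

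Sstr2 and Sstr4 had a gene in common among their 5, Pde1a, a phosphodiesterase activated by calcium and calmodulin, at r = 0.75 with Sstr2 and 0.79 with Sstr4. Sstr2 was also near Nwd2 (0.75), highest in the habenula as it was, Syt16 (0.70), Slc7a4 (0.69) and syntaxin Stx1a (0.68), and 4 of its 5 stayed without the 3 regions. Sstr4 was near St6galnac5 (0.80), Rtn4rl2 (0.79), Zdhhc23 (0.78) and neurogranin Nrgn (0.77), and 3 of its 5 stayed. Sstr3 was nearest to Thrb (0.62), Usf1 (0.61), Ube2w (0.59), Arpc4 (0.58) and Stxbp5l (0.58), lower values than for the other receptors, and 2 of its 5 stayed. All of these correlations run over 52 means that share arrays and tissue classes, and they describe likeness only.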

How the data were processed

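The authors deposited log2 values made with RMA, per the submitters' processing notes, with no version given. RMA subtracts background, quantile normalizes and summarises probe sets, and returns a value for every probe set, so a low value is no proof of expression. The values were used as deposited. Of 45101 probe sets, 34945 matched a single symbol of the platform annotation, 932 matched several and 64 were controls. Each gene took its brightest single-symbol probe set. A mean per region was fitted in limma 3.58.1 (R 4.3.3; 52 residual degrees of freedom), with two-sided tests adjusted by Benjamini-Hochberg over 18193 genes and a call at an adjusted p under 0.05 and 2-fold. The procedure was tested on simulated data. The control rows of the POA/BF columns were out of order. Of displacements of 0 to 6 places, 3 places matched the other regions best, at r = 0.60 and 0.56 on the 2 arrays. They were read there, although so moderate a match leaves the displacement inferred. The gene rows were in order, at r of 0.97 to 0.99. The named genes were the members, the 5 most correlated genes each, and up to 6 called genes of each list. The members and lists were chosen with earlier results of these data known. Pcsk2, Pou1f1, Grk2, Arl13b and 5 other listed genes were not analysed here.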

Additional observations from a re-analysis of the deposited data

How the results depend on the processing

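Quantile normalization, centring of arrays, a variance trend, the control level as a covariate and a filter that dropped dim genes left the number of members called in each comparison within 1.5 times. With the replicate number as a replicate block, 4 members were called among the regions and 4 in the cerebellar cortex, as before. Same-numbered arrays of 2 regions deviated together at a median r near 0, from -0.50 to 0.52, with 24.7% of pairs of regions above 0.1. Such values cannot tell whether same-numbered arrays of some regions shared an occasion or a batch. The filter on dim genes removed Sstr3. Without the fold threshold, 2 members were called for POA/BF, 5 for the hypothalamus and thalamus, 4 for the isocortex and caudate putamen, 4 for the hippocampal formation, 3 for the amygdala, 2 for the arcuate nucleus and median eminence, 5 for the pituitary and 4 for the dentate gyrus. By the same rule 27.6%, 60.3%, 33.9%, 33%, 25.5%, 36.7%, 56.4% and 27.8% of all genes passed, in that order. With the mean of all probe sets, 1 was called for the isocortex and caudate putamen. With region means as the samples, 1 was called for the hypothalamus and thalamus, where 756 of all 18193 genes were. For the arcuate nucleus and median eminence, the pituitary and the dentate gyrus 0 were called. Of all genes, 81, 1593 and 14 were called there, in that order. Leaving out regions gave 1 for the hypothalamus without the mediodorsal thalamus, 2 for the hippocampal formation without the ventral subiculum and 1 without the dentate gyrus, the retrosplenial cortex or the cingulate cortex, 1 for the amygdala without its posterior part, 0 without the arcuate nucleus, and 2 for the dentate gyrus without CA2/CA3. Leaving out the retina, mammillary body or lateral hypothalamus, chosen after seeing the data, kept 4 among the regions and 0 for POA/BF. Leaving out replicates moved POA/BF between 0 and 1 and the isocortex and caudate putamen between 1 and 2. The near-zero difference of Sst between isocortex and caudate putamen turned negative with centring (-0.030), quantile normalization (-0.016) and without the motor cortex (-0.059), the cingulate cortex (-0.12) or the lateral caudate putamen (-0.17), and ran from -0.20 to 0.21 without a replicate. The causes were not tested. Precision is limited by 2 arrays a region, and both probe sets of Sstr3 lay under the median of all values.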
